A study of Mus musculus with 8 samples.

Results

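A group of 10 genes of the fibrous tissue around cartilage, the perichondrium, and of tendon were followed in rib cells of mouse embryos: Postn, Thbs2, Fbln5, Fbn1, Prrx1, Twist1, Twist2, Scx, Mkx and Tnmd. Their probe sets were taken wherever the platform annotation gives a probe set 1 symbol and that symbol is one of the 10. This gave 18 of the 45101 probe sets on the array and covered 9 of the 10 genes, out of 18193 genes named in this way. Fbn1, the gene of the microfibril protein fibrillin-1, had no probe set with its symbol in the annotation used here and was not analysed here. Of the 18 probe sets, 14, from 8 genes, reached the mean signal of 110 required for testing. The other 4, both of Scx, 1 of Fbln5 and 1 of Prrx1, did not.

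The samples were 8 arrays of primary rib chondrocytes of FVB mice at E18.5, late gestation. One group of 4 came from Hoxc8 transgenic embryos and the other group of 4 from control embryos, whose genotype is given as wild type. Each of 4 litters, called litters 1 to 4 here in ascending order of their label numbers, gave 1 array of each genotype, so that genotypes can be compared within a litter and litters can be compared over both genotypes. The promoter of the transgene, the number of transgenic lines, the sex of the embryos and the number of embryos in a sample are not given in the sources used here.

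The perichondrium is a sheath of fibroblast-like cells that surrounds growing cartilage and supplies it with new cells, and tendons join muscle to bone through collagen fibres laid down by tenocytes. Rib cages carry both, and the muscles between the ribs besides, so cells freed from a rib cage by collagenase and trypsin can include them next to the chondrocytes. Scx and Mkx encode transcription factors of the tendon lineage, Tnmd a membrane protein of differentiated tenocytes, and Prrx1, Twist1 and Twist2 encode factors of undifferentiated mesenchyme. Postn and Thbs2 encode secreted matricellular proteins, which modify how cells meet the matrix, and Fbln5 a protein needed to assemble elastic fibres.

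The 8 arrays had median signals between 107 and 121. Hoxc8, the gene of the transgene, had signals of 4096, 3400, 3810 and 4235 in transgenic samples of litters 1 to 4, against 4112, 3066, 3755 and 3143 in control samples. The groups overlapped, and the fitted difference was 0.15 log2 (SE 0.12; limma, adjusted p = 0.9999). The labels do not say whether this probe set reads RNA of the transgene. Markers of chondrocytes were bright: all 16 of 16 had probe sets at or above the filter, and their summed signal lay between 359947 and 420544 in transgenic samples and between 350499 and 461881 in control samples. In bulk RNA, fewer cells of a type and less RNA per cell cannot be told apart, which holds for every value here.

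Between genotypes, no perichondrium or tendon gene changed by the test, and 0 of all 22519 tested probe sets did. Between litters 3 of the 8 tested genes changed, beside 9.91% of all tested genes. Litter 3 had the highest litter mean for all 14 tested probe sets of the 8 genes, where 24.1% of all tested probe sets had their highest mean in that litter. This was seen among the tested matrix genes, mesenchymal factors and tendon genes, though by little for Twist2. Postn, Twist1, Twist2, Mkx and Tnmd did not pass the litter test. Neither probe set of the tendon factor Scx, which was not tested, was highest in litter 3. Each litter mean rests on 2 arrays.

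For Thbs2, Fbln5 and Prrx1, the genes with a litter difference past the test, and for the tendon gene Tnmd, the 250 bases before the RefSeq start are shown (GRCm38.p6, gene strand), since all 4 had their highest litter mean in litter 3. Capitals mark CANNTG, the E-box, the core that basic helix-loop-helix factors such as Twist1 and Scx bind. They lie at chr17:14694263-14694512 (minus strand) for Thbs2, chr12:101819120-101819369 (minus strand) for Fbln5, chr1:163313651-163313900 (minus strand) for Prrx1 and chrX:133850758-133851007 (plus strand) for Tnmd. Fbln5 has another window in the table, at chr12:101818485-101818734, which holds no CANNTG. The window shown was chosen because it holds one.
Thbs2: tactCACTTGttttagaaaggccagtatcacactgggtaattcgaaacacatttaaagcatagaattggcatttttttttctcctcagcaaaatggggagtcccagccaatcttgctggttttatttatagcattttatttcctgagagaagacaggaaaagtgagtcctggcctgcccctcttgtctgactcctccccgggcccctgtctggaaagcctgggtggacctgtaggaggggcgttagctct
Fbln5: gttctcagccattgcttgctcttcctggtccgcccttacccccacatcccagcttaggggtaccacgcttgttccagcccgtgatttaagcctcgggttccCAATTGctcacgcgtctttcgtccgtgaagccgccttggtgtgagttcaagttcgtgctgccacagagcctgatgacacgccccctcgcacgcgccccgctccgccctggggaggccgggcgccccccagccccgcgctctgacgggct
Prrx1: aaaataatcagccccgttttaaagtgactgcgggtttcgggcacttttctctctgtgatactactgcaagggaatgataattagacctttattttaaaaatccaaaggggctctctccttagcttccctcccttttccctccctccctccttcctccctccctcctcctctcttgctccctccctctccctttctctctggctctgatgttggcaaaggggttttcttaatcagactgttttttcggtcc
Tnmd: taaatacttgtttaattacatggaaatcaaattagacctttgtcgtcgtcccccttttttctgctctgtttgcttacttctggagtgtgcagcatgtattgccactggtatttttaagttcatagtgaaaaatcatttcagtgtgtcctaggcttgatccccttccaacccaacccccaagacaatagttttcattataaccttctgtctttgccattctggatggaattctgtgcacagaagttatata
E-boxes were searched on both strands, which read the same letters. No window of Mkx or Scx was counted here, so the counts below leave both genes out. Windows of the other 8 of the 10 genes were counted, 10 windows in all since Postn and Fbln5 have more than 1 start. Of these, 2 held CANNTG, those of Thbs2 and Fbln5 shown above, beside 66.2% of all 32851 windows of this length. CAGATG and its reverse CATCTG, which are E-boxes themselves, were in 0 of the 10 windows and in 14.4% of all windows. The sequence TATAAA or its reverse TTTATA was in 3 of the 10, among them Thbs2, and in 12.4% of all. These matches describe the letters of the windows.

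Thbs2, which encodes thrombospondin-2, a matricellular protein of connective tissue, had 3 probe sets. Probe set 1422571_at gave 5379, 3654, 6135 and 2727 in transgenic samples of litters 1 to 4, against 4387, 3226, 6975 and 4564 in control samples. Probe set 1450663_at gave 5298, 3461, 5593 and 3782 in transgenic samples, against 3915, 2263, 6514 and 4364 in control samples. Both were highest in litter 3 in each genotype, and the genotypes overlapped.

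The remaining probe set of Thbs2, 1447862_x_at, gave 3904, 2940, 4861 and 4023 in transgenic samples, against 3560, 2893, 5554 and 3731 in control samples. All 3 probe sets passed the litter test, in which the moderated F-test of limma compares the 4 litters with genotype in the model (adjusted p = 0.0224, 0.0138 and 0.00459 for 1422571_at, 1450663_at and 1447862_x_at). Their highest litter mean stood 1.90-fold, 2.15-fold and 1.78-fold above the lowest, litter folds being taken here on the log2(signal + 22.2) scale. The lowest litter was 2 for all 3. In contrasts of single litters, adjusted over all probe sets and the 6 pairs of litters, litter 3 exceeded litter 2 for each, by 0.93, 1.10 and 0.83 log2 (limma, adjusted p = 0.0221, 0.00733 and 0.00218).

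Postn encodes periostin, a matricellular protein of perichondrium, periosteum and tendon. Its signals were 32137, 27169, 32075 and 26865 in transgenic samples of litters 1 to 4, against 28496, 28361, 34763 and 32506 in control samples. The arrays spanned a narrow range, 1.29-fold between the highest and the lowest, and the genotypes overlapped. Among control samples litter 3 was highest, and litters 1 and 3 were close to each other among transgenic samples. The litter means differed by at most 1.20-fold, which was not past the test (limma F-test, adjusted p = 0.297).

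Fbln5 encodes fibulin-5, which binds elastin and integrins. Probe set 1416164_at gave 2304, 1178, 1975 and 1236 in transgenic samples of litters 1 to 4, against 1916, 1468, 2648 and 1916 in control samples. The highest array was that of litter 3 in control samples and of litter 1 in transgenic samples, and litter 2 was lowest in both genotypes. The highest litter mean was 1.73-fold above the lowest (limma F-test, adjusted p = 0.0310), and litter 3 exceeded litter 2 by 0.79 log2 (adjusted p = 0.0297 over all pairs). The other probe set of Fbln5, 1446377_at, had signals between 7.82 and 89.6, under the filter.

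Prrx1 encodes a homeobox factor of limb and body wall mesenchyme and had 6 probe sets, 5 of them tested. Probe set 1425528_at, with the highest mean of them, gave 1478, 1189, 1931 and 1175 in transgenic samples of litters 1 to 4, against 1364, 1075, 2249 and 1703 in control samples. Both genotypes were highest in litter 3, its mean 1.83-fold above that of litter 2 (limma F-test, adjusted p = 0.0233). Of the other 4 tested probe sets of Prrx1, 0 passed. Probe sets 1425527_at and 1439774_at stood close to the threshold (adjusted p = 0.0688 and 0.0692), with litter 3 above litter 2 by 0.89 and 0.64 log2 in the contrast of these litters alone (limma, adjusted p = 0.0386 and 0.0481 over all pairs). Probe sets 1425526_a_at and 1432129_a_at, with litter means at most 1.36-fold and 1.15-fold apart, had no p near it (adjusted p = 0.311 and 0.716). All 5 had their highest litter mean in litter 3.

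Twist1 and Twist2 encode related basic helix-loop-helix factors, which act in mesenchyme and hold back the differentiation of osteoblasts. Twist1 gave 346.9, 244.9, 398.8 and 247.2 in transgenic samples of litters 1 to 4, against 314.9, 291.6, 361.2 and 265.9 in control samples. For Twist2 the signals were 253.3, 367.8, 386.3 and 153.9 in transgenic samples, against 331.5, 317.5, 307.6 and 303.01 in control samples. The control samples of Twist2 lay close together, with an SD of 12.6 (n = 4), and its transgenic samples spread around them, with an SD of 108 (n = 4). Neither gene passed the litter test (limma F-test, adjusted p = 0.196 for Twist1 and 0.3003 for Twist2). Twist2 also stood apart in that its litter 2 mean was nearly as high as that of litter 3, 0.20 and 0.22 log2 above the mean of the litters.

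Tnmd encodes tenomodulin, a type II membrane protein of tendon and ligament. Its signals were 10943, 8149, 11340 and 7284 in transgenic samples of litters 1 to 4, against 8482, 9270, 12355 and 11252 in control samples. Litter 3 was highest in both genotypes, and the highest litter mean was 1.36-fold above the lowest (limma F-test, adjusted p = 0.239).

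Mkx encodes Mohawk, a homeobox factor needed for collagen production in tendon. It gave 354.3, 168.7, 380.8 and 231.2 in transgenic samples of litters 1 to 4, against 219.2, 191.6, 389.1 and 268.01 in control samples. Litter 3 was highest and litter 2 lowest in both genotypes, and the litter means spanned 2.02-fold (limma F-test, adjusted p = 0.0727). As for those 2 probe sets of Prrx1, the F-test was not passed, although the contrast of litter 3 with litter 2 alone gave 1.01 log2 (adjusted p = 0.0415 over all pairs).

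Scx encodes scleraxis, the earliest marker of the tendon lineage, and both of its probe sets were dim. Probe set 1428983_at gave 58.3, 108.6, 118.4 and 117.0 in transgenic samples of litters 1 to 4, against 113.5, 63.4, 103.8 and 142.3 in control samples. Probe set 1456291_x_at gave 135.4, 75.1, 84.9 and 82.6 in transgenic samples, against 88.8, 78.7, 46.5 and 64.3 in control samples. Neither probe set was highest in litter 3 by its litter mean, and they did not follow each other. Detection calls were not used here, so whether Scx was above background is not known.

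**Figure D1:**
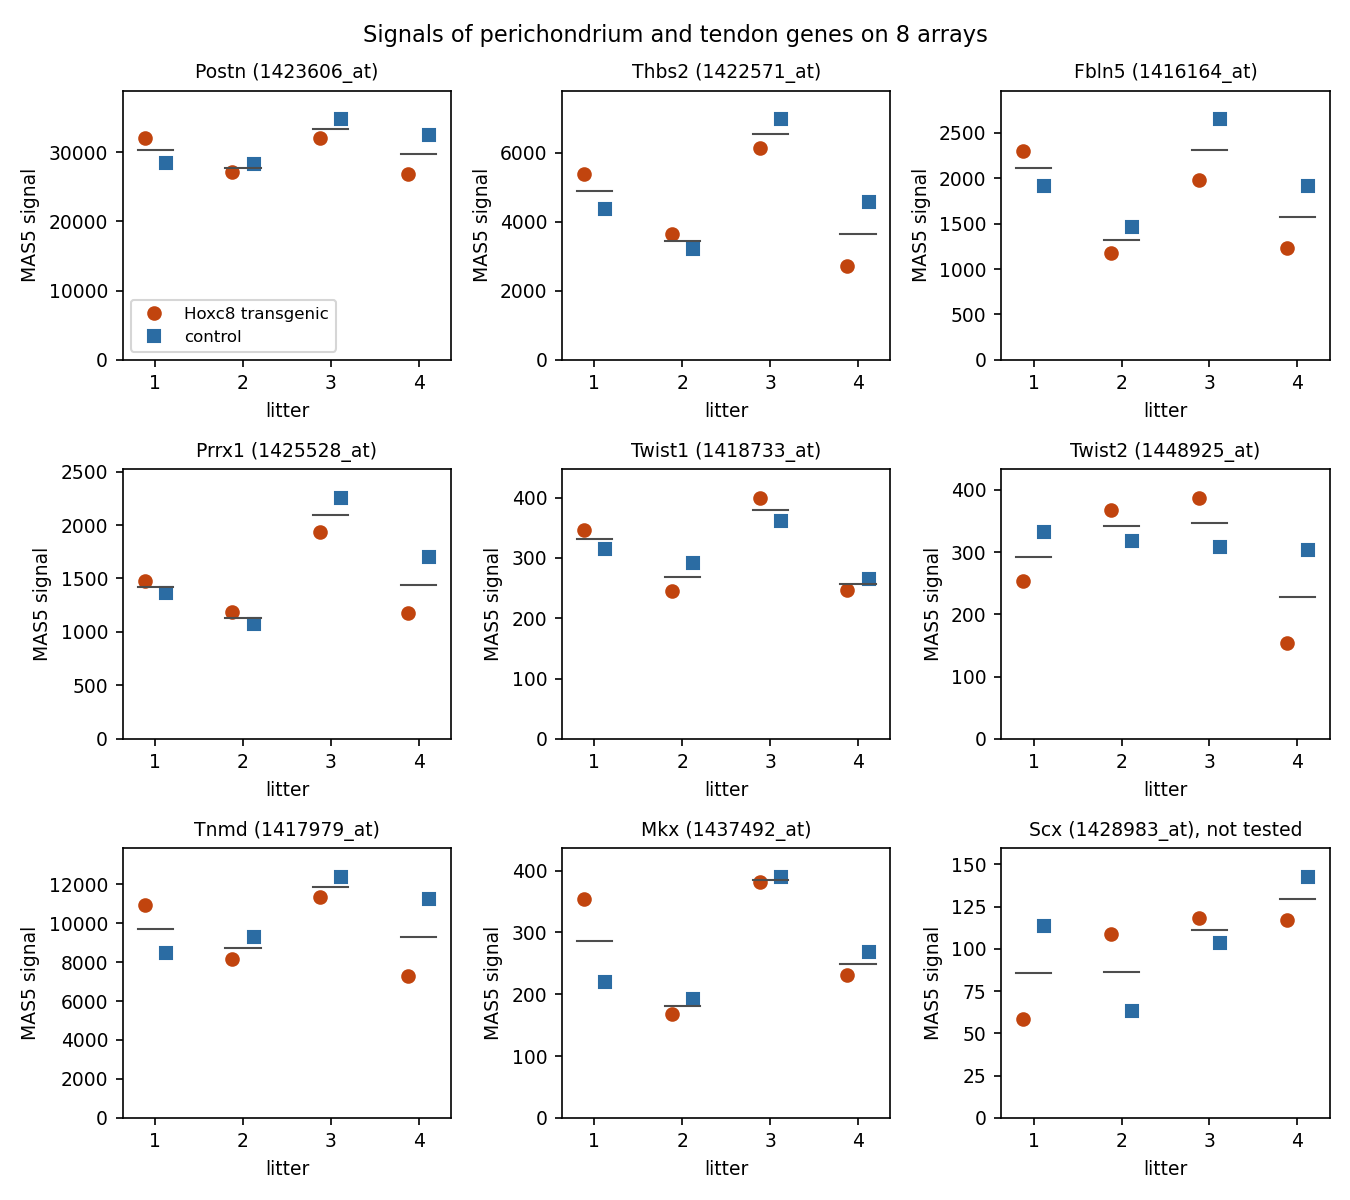
Signals of 9 genes in each array, by the probe set of highest mean. The x axis gives the litter, the y axis the MAS5 signal on a linear scale from 0. Circles are Hoxc8 transgenic samples, squares control samples and bars the mean of both in a litter. Litter 3 has the highest bar in every panel but that of Scx, which was not tested.

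The litter result can be read against all tested probe sets. The litter test was passed by 5 of the 14 probe sets of these genes, beside 9% of all 22519 tested, and 8 of the 14 had an unadjusted p under 0.05, beside 27.7% of all. Litter 3 was highest in both genotypes separately for 10 of the 14, beside 10.2% of all, and litter 2 was lowest in both for 6, beside 12.2%. It was highest among the transgenic samples for 11 of 14, beside 21.5% of all, and among the control samples for 13 of 14, beside 25.4% of all. The lowest control sample was that of litter 2 for 9 of 14, beside 29.7% of all, and the lowest transgenic sample that of litter 2 for 8 of 14 and of litter 4 for the other 6, beside 29.8% of all for litter 4. The arrays of the genotypes share no sample, but both come from the same litters. The probe sets are not independent of each other, since 5 belong to Prrx1 and 3 to Thbs2.

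The median over the 14 probe sets was 0.33 log2 above the mean of the litters in litter 3 and stood at -0.35 log2 in litter 2. The medians were 0.01 in litter 1 and -0.08 in litter 4. Over all tested probe sets the same medians lay between -0.01 and 0.01. The spread between the highest and lowest litter mean had a median of 0.71 log2 over the 14 probe sets, beside 0.40 log2 over all.

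**Figure D2:**
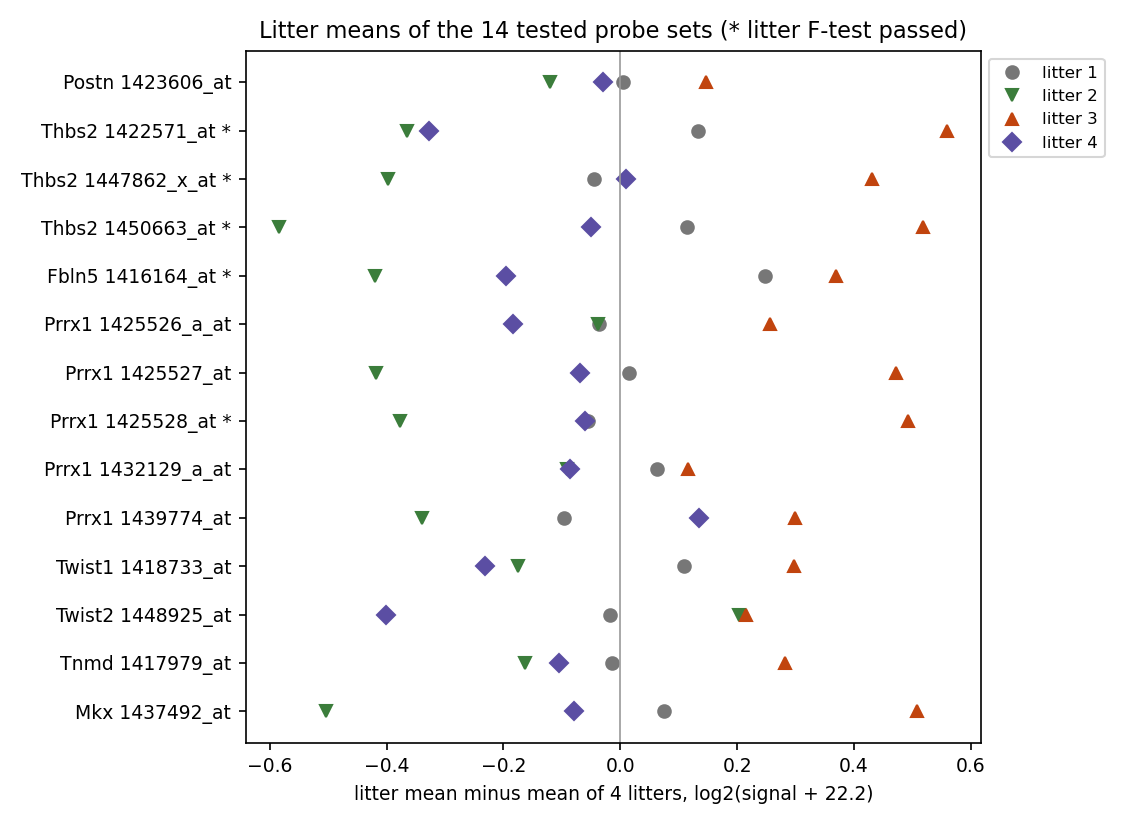
Litter means of the 14 tested probe sets, each set against the mean of the 4 litters on the log2(signal + 22.2) scale (x axis). Each symbol is the mean of 1 transgenic and 1 control array. Stars mark the 5 probe sets past the litter test. The upward triangles of litter 3 lie furthest right in every line, by little for Twist2.

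The litter calls depended on how the spread was estimated and on single arrays. With an eBayes prior that does not follow the signal intensity, 0 of 22519 probe sets and 0 of the 14 passed, although 9 of the 14 had an unadjusted p under 0.05. Without litter 2 and without litter 3, the count over these genes was 0 in each case, and without litter 1 it was 9. It was 2 without the transgenic array of litter 2 or of litter 3, 1 without the control array of either litter, and between 5 and 7 without any other single array. The position of litter 3 depended less on these choices: litter 3 had the highest mean for 10 of 14 probe sets without the control array of litter 1, and for 13 or 14 of 14 without any other single array.

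Markers of chondrocytes and of other cells also varied between litters. The summed signal of 16 chondrocyte markers, led by Cnmd, was highest in litter 2, with 420544 in transgenic and 461881 in control samples, and in litter 3 it was 376763 and 367328. The summed signal of 14 skeletal muscle markers, all at or above the filter and led by Acta1, was 59746, 38612, 45619 and 62854 in transgenic samples of litters 1 to 4, against 61866, 41409, 45019 and 67897 in control samples. Litter 3 was thus not the litter with the most muscle signal. Their part in the litter differences of the perichondrium and tendon genes was not tested.

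The summed signal of 17 genes induced while tissue is dissociated, led by Fos, was 181727, 237429, 182993 and 135251 in transgenic samples of litters 1 to 4, against 187596, 240393, 162165 and 129457 in control samples. It was highest in litter 2 in both genotypes, where Fbln5 and Mkx were lowest, and all 17 passed the litter test. Of 7 osteoblast markers with a probe set, 6 reached the filter, led by Alpl. Their summed signal lay between 1757 and 2393 in transgenic samples and between 1719 and 2696 in control samples, with litter means of 1879, 2412, 2534 and 1856. The part of these differences in the results was not tested.

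Macrophage markers, 7 of 10 at or above the filter and led by Csf1r, summed to between 1470 and 2216 in transgenic and between 1492 and 2370 in control samples. Endothelial markers, 8 of 9 and led by Eng, summed to between 1659 and 2711 and between 2126 and 3205. Pericyte and smooth muscle markers, 7 of 8 and led by Acta2, summed to between 11611 and 12424 and between 11553 and 13781. The sums of osteoblast, macrophage, endothelial, pericyte, adipocyte and keratinocyte markers, like the genes described here, had their highest litter mean in litter 3. Gene by gene this held for part of each list: litter 3 was the highest for 3 of 6 tested osteoblast, 3 of 7 macrophage, 4 of 8 endothelial, 2 of 7 pericyte and 1 of 4 keratinocyte markers, and for the 1 tested adipocyte marker. Of the pericyte markers 5 of 7, Acta2 among them, were highest in litter 4, and of the keratinocyte markers 3 of 4, Krt10 among them. Acta2 and Krt10 were lowest in litter 3, with litter means of 4048 and 524.4. The part of these markers in the results was not tested. For macrophages litters 1 and 3 were close, with litter means of 2232 and 2247. Neutrophil markers, 4 of 8 and led by S100a9, had litter means of 3812, 1960, 2642 and 4766. Erythroid markers, 4 of 7 and led by Alas2, had litter means of 6141, 5575, 4617 and 6838. For the remaining markers few genes reached the filter: 1 of 4 for adipocytes, Fabp4, 4 of 8 for keratinocytes, led by Krt10, and 2 of 5 for Schwann cells and neurons, led by S100b.

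Other genes of elastic fibres and fibrous matrix were compared as background to Fbln5, Postn and Thbs2. These lists, like all lists here, were chosen with earlier results of these data known, so their counts are descriptions. Of 15 tested genes of elastic fibres and microfibrils, 10 passed the litter test, beside 9.91% of all 10989 tested genes, and 14 had their highest litter mean in litter 3, beside 25.8% of all genes. Mfap2 and Emilin1, which encode proteins of microfibrils and of the elastin interface, had litter means up to 1.65-fold and 1.75-fold apart (limma F-test, adjusted p = 0.0037 and 0.00296). Of the 2 tested probe sets of Mfap2, 1 passed. Ltbp4, the gene of a latent TGF-beta binding protein that acts with fibulin-5 in elastic fibre assembly, spanned 2.10-fold (adjusted p = 0.00343), with signals of 1620, 1153, 1477 and 691.7 in transgenic samples of litters 1 to 4, against 1246, 1148, 1618 and 755.9 in control samples. In 9 of the 15 the lowest litter was litter 4, and in the other 6 it was litter 2.

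Of 10 fibrous collagen genes, 8 passed the litter test and 9 were highest in litter 3. Col12a1, a fibril-associated collagen of tendon and perichondrium, gave 9905, 6259, 11449 and 7292 in transgenic samples of litters 1 to 4, against 8595, 6225, 11377 and 8228 in control samples, highest in litter 3 and lowest in litter 2 in both genotypes (limma F-test, adjusted p = 0.00192). Col5a1 and Col6a2 spanned 1.76-fold and 1.53-fold between litters (limma F-test, adjusted p = 0.00446 and 0.00485). Col3a1, with signals between 32474 and 40194 in its brightest probe set, spanned 1.07-fold between litter means there (limma F-test, adjusted p = 0.843). Of its 2 tested probe sets, 1 passed the litter test, not the one given here.

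Of 8 other tendon genes tested, 3 passed the litter test, namely Tnc, Egr1 and Egr2, and 4 were highest in litter 3. Tnc, the gene of tenascin-C, gave 3915, 2683, 5954 and 3248 in transgenic samples of litters 1 to 4, against 3590, 2937, 6972 and 4283 in control samples. It was highest in litter 3 and lowest in litter 2 in both genotypes (limma F-test, adjusted p = 0.000935). Of the 2 tested probe sets of Tnc, 1 passed, the one given here. Egr1 and Egr2 are zinc finger factors that act in tendon and are also induced when tissue is dissociated. Both were lowest in litter 4 and followed another order, with Egr2 highest in litter 2 (931.5 and 1027). Of the 2 tested probe sets of Egr2, 1 passed. Litter 2 had the highest litter mean for 4 of the 8, namely Egr1, Egr2, Fmod and Bgn, beside 24.5% of all tested genes. Fmod and Bgn, named after their values were seen, did not pass by their brightest probe sets (limma F-test, adjusted p = 0.0647 and 0.0795). Of their other probe sets, 1 each passed. Of 18 other fibroblast and perichondrium genes, 8 passed and 10 were highest in litter 3. Litter 1 was the highest for 4, litter 4 for 3 and litter 2 for 1, and 2 were lowest in litter 3. Those that passed included Fap, a fibroblast surface protease, Tgfbi, a relative of Postn, and Thbs1, a relative of Thbs2. Their litter means spanned 1.61-fold, 1.56-fold and 1.53-fold (limma F-test, adjusted p = 0.00822, 0.00668 and 0.00446). Of the 4 tested probe sets of Tgfbi, 2 passed.

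**Figure D3:**
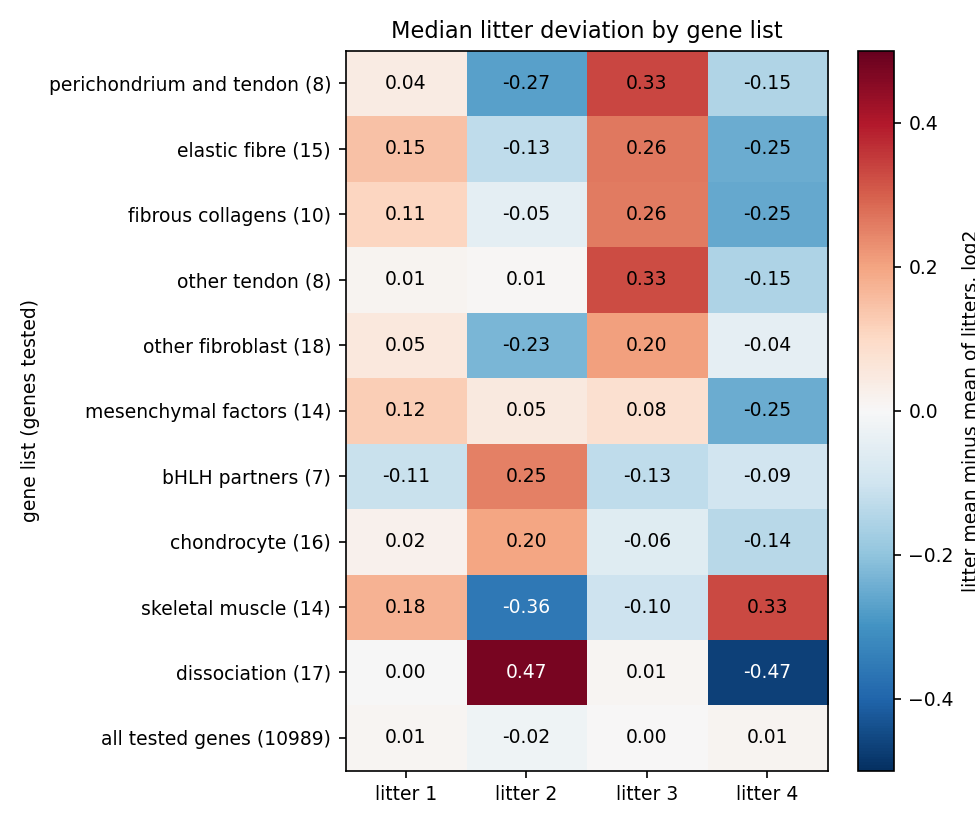
Median litter deviation of gene lists, as litter mean minus the mean of the 4 litters on the log2 scale. Lines are lists with the number of genes tested, columns are litters. The genes described here stood at 0.33 in litter 3 and -0.27 in litter 2 when each gene counts once, elastic fibre genes and fibrous collagens at 0.26 each in litter 3, and chondrocyte markers at 0.20 in litter 2 and -0.06 in litter 3.

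The genes were also compared with each other over the 8 arrays. Pearson correlations of log2 values between the 14 probe sets were above 0 in 89 of 91 pairs, with a median of 0.72. Postn and Tnmd correlated at 0.97, and Postn with Fbln5 and with Prrx1 (1425528_at) at 0.91 each. The lowest values involved Twist2, which correlated at -0.10 with Prrx1 (1439774_at) and at -0.09 with Thbs2 (1447862_x_at). These are descriptions over 8 arrays that share 4 litters, and depth and scaling of an array are common to all its probe sets.

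Among all tested genes, the 3 with the pattern most like that of each gene were taken by Pearson correlation over the 8 arrays. For Postn these were Olfml2b (0.98), Ccdc3 (0.98) and Ctsk (0.98), and for Tnmd Olfml2b (0.98), Postn (0.97) and Hip1 (0.97). Thbs2 was followed by C1ql3 (0.99), Frmd6 (0.98) and Col14a1 (0.98), the last a collagen of tendon and dermis. Fbln5 was followed by Aldh9a1 (0.97), Lox (0.97), which encodes the enzyme that crosslinks elastin and collagen, and Dusp3 (0.96). The nearest to Prrx1 were Epha3 (0.997), Pdgfra (0.987), a receptor gene of mesenchymal fibroblasts, and Ank2 (0.984).

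For Mkx the nearest genes were Tmem119 (0.97), Rps6ka3 (0.97) and Gnb2 (0.96), for Twist1 Lrrc75a (0.98), Myo1c (0.97) and Aak1 (0.96), and for Twist2 Apex2 (0.98), Ppfia1 (0.96) and Tmem229b (0.94). Only the lists of Postn and Tnmd shared a gene, Olfml2b. High correlations are common when 8 arrays are set against 10989 genes.

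Between genotypes, none of the 14 probe sets passed the test, and 0 of 22519 passed overall (0%; limma, smallest adjusted p over these genes 0.9999). None of the 14 had an unadjusted p under 0.05, beside 1.09% of all, and for none did the 4 transgenic arrays lie apart from the 4 control arrays, beside 1.02% of all. The fitted difference, transgenic minus control, was negative for 11 of 14 and positive for 3, beside 51.2% negative over all probe sets. Its median was -0.12 log2, beside -0.003 over all. Of the 11, 5 belong to Prrx1.

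Among the 14, the fitted difference furthest from 0 in the unweighted fit of all 8 arrays was that of Fbln5, with a mean signal of 1673 ± 556 in transgenic and 1987 ± 489 in control samples (SD, n = 4 each). It came to -0.27 log2 (SE 0.22), and the 95% interval of -0.75 to 0.21 allows folds between 0.593 and 1.15. Transgenic arrays stood at 1.20, 0.802, 0.746 and 0.645 times their control littermates in litters 1 to 4, thus lower in 3 of 4 litters. Leaving out single arrays or litters gave differences between -0.45 (without litter 1) and -0.13 log2 (without the control array of litter 3). With array weights Fbln5 stood at -0.12 log2, and Prrx1 1425527_at at -0.28 and Mkx at 0.26 were then further from 0. A fit that blocks on litter gave an SE of 0.12 (limma unadjusted p = 0.0442 and adjusted p = 0.9998), and Fbln5 was the only one of the 14 with an unadjusted p under 0.05 in that fit, beside 3.34% of all probe sets.

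Postn averaged 29561 ± 2941 in transgenic and 31032 ± 3144 in control samples (SD, n = 4 each), a difference of -0.07 log2 with an interval from -0.28 to 0.15. Tnmd averaged 9429 ± 2015 in transgenic and 10340 ± 1779 in control samples, a difference of -0.14 log2 with an interval from -0.48 to 0.20. Both intervals are without a block. With litter as a block they ran from -0.23 to 0.089 for Postn and from -0.40 to 0.115 for Tnmd. For both, the ratio was above 1 in litter 1 alone (1.13 and 1.29) and lowest in litter 4 (0.826 and 0.647).

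The 3 probe sets of Thbs2 gave fitted differences of -0.11 (1422571_at), 0.15 (1450663_at) and 0.02 log2 (1447862_x_at), and thus disagreed in sign. Their intervals reached from -0.66 to 0.71 without a block, and from -0.40 to 0.43 with litter as a block. For Prrx1 all 5 tested probe sets gave a negative difference, between -0.21 and -0.11 log2. Of these, 2, namely 1425527_at and 1432129_a_at, were lower in transgenic samples in all 4 litters. No other of the 14 probe sets was, so the count was 2 of 14, beside 5.43% of all probe sets. Means of 1432129_a_at were 304.2 ± 28.4 in transgenic and 349.2 ± 25.2 in control samples (SD, n = 4 each; -0.19 log2, SE 0.14; limma, adjusted p = 0.9999), and its highest transgenic array lay above its lowest control array.

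Twist1 stood at -0.02 log2 (SE 0.18), Twist2 at -0.18 (SE 0.23) and Mkx at 0.06 (SE 0.26). In Mkx the transgenic array exceeded the control array in litter 1, 1.62-fold, and in the other litters the ratio was 0.881, 0.979 and 0.863. For Twist2 it was 0.764, 1.16, 1.26 and 0.508. The intervals of the fit without a block allow differences down to 0.622-fold for Twist2 and up to 1.54-fold for Mkx. With litter as a block the intervals ran from -0.60 to 0.23 log2 for Twist2 and from -0.31 to 0.43 for Mkx.

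The genotype difference had a different sign in different litters. In litter 1, 4 of the 14 probe sets were lower in the transgenic sample, in litter 2 8, in litter 3 12 and in litter 4 13. The median difference over the 14 was 0.13, -0.08, -0.19 and -0.24 log2 in litters 1 to 4, beside medians between -0.01 and 0.01 over all probe sets. With 1 array of each genotype in a litter, this difference between litters has no replicate and was not tested.

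**Figure D4:**
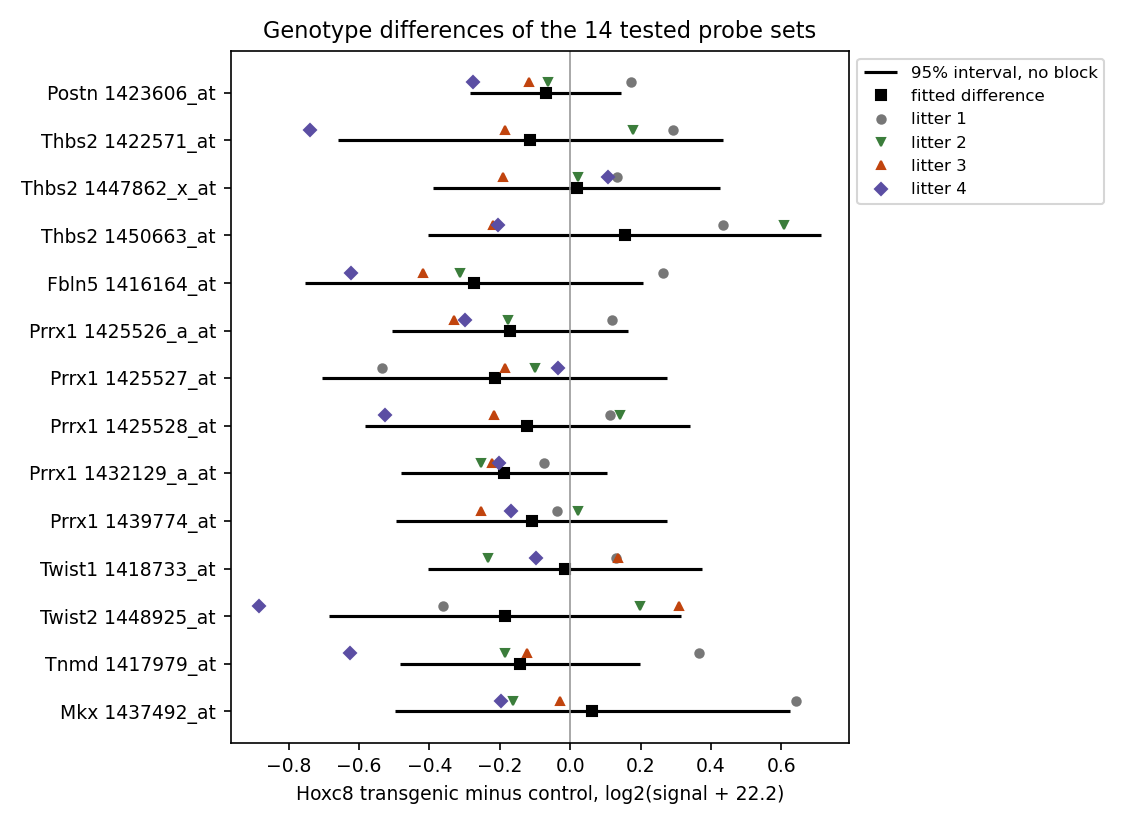
Genotype differences of the 14 tested probe sets, Hoxc8 transgenic minus control on the log2(signal + 22.2) scale (x axis). Squares and lines are the fitted differences with 95% intervals over all 8 arrays without a block, and the small symbols above them the differences within each litter. All 14 intervals include 0, and the diamonds of litter 4 lie left of 0 in 13 of 14 lines.

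None of the genes in the fibrous matrix lists passed between genotypes either. Among 15 elastic fibre genes, 9 lay below 0 and the median was -0.05 log2, and Ltbp1 and Ltbp2, genes of latent TGF-beta binding proteins, had the smallest unadjusted p (-0.21 and -0.18 log2). Of 10 fibrous collagen genes, 8 were negative, with a median of -0.07, Col3a1 and Col5a2 both at -0.09. Of 8 tendon genes, 6 were negative, with a median of -0.05, Kera, the gene of keratocan, and Tnc both at -0.16. Of 18 fibroblast and perichondrium genes, 14 were negative, with a median of -0.04, Aspn at 0.20 and Fn1 at -0.07. The median over all tested genes was 0.002 log2, and 5422 of 10989 were negative.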

How the data were processed

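The authors deposited 1 linear intensity for each probe set on each array, a MAS5 signal, per the submitters' processing notes. Its version and a genome build are not given in the sources used here. The mean of the control array of litter 1 after trimming 2% at both ends was 500, and that of the other arrays is not given here. Genes were named from a platform annotation of the array, 34945 probe sets having 1 symbol. Control probe sets (64) were left out.

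Tests used log2(signal + 22.2), whose offset, set at the 20th percentile of all values, understates changes of dim genes. Testing was limited to the 22519 probe sets whose mean reached 110, the median of probe set means. limma 3.58.1 in R 4.3.3 (lmFit, eBayes with trend, two-sided, Benjamini-Hochberg adjustment over all tested probe sets, threshold 0.05) compared genotypes without covariates and litters by an F-test that kept genotype as a term. In lists a gene is its brightest probe set. The steps were also run on simulated data with independent normal noise. The outcome is not given here, so it does not say which differences these arrays could detect.

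Replicate numbers pair the samples, as the labels tie each to a litter. Littermate arrays, after subtracting each group's mean, had correlations of 0.0251, 0.434, 0.376 and 0.379 for replicates 1 to 4. The highest correlation of the control array with a transgenic array of another litter was 0.0630, 0.0133, 0.0303 and 0.00416. For replicate 1 the littermate value was thus the lower one, so the pairing of litter 1 rests on the labels alone.

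Named genes were all 10 genes, of each matrix or factor list the 3 with the smallest litter p and the 2 with the smallest genotype p, of each marker list the brightest, and the 3 nearest genes by correlation. Genes and lists were chosen with earlier results of these data known. Alternatives were the offset, filter, normalization, eBayes options, array weights, probe set choice, a litter block and leaving out arrays or litters. Precision is limited by the number of arrays.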

Additional observations from a re-analysis of the deposited data

How the results depend on the processing

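Between genotypes, 0 probe sets overall and 0 of these genes passed in the main test and under all 23 alternatives, including the replicate block by litter (752 with an unadjusted p under 0.05, against 246 without it), which changed no call. With array weights the sign of the genotype difference turned for Tnmd (0.056 log2), Twist1 (0.054), Thbs2 1422571_at (0.055), Postn (0.017) and Prrx1 1425528_at (0.0058), and with median centring for Twist1 (0.0082). Leaving out single arrays or litters gave ranges that cross 0 for Mkx (-0.13 to 0.27), Prrx1 1425528_at (-0.29 to 0.058) and 1439774_at (-0.24 to 0.014), Thbs2 1422571_at (-0.29 to 0.10), 1447862_x_at (-0.12 to 0.20) and 1450663_at (-0.12 to 0.39), Tnmd (-0.31 to 0.019), Twist1 (-0.14 to 0.079) and Twist2 (-0.35 to 0.066). No value among these passed the test.

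The litter test gave 2027 probe sets overall and 5 of the 14. Without the intensity trend it gave 0 and 0 (4915 with an unadjusted p under 0.05), without a filter 995 and 2, with median centring 8 of the 14, and with 1 probe set per gene 3 of 8. Leaving out single arrays or litters gave 546 to 3047 overall and 0 to 9 of the 14. Litter 3 was highest for 8 of the 8 left by the stricter filter or by 1 probe set per gene, and for 10 to 14 of 14 without single arrays or one of the other litters, counts added after seeing the data. Apart from the smaller number of genes tested or samples used, the cause of these changes was not tested.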

Other observations

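The Id genes, whose products hold back basic helix-loop-helix factors, were highest in litter 2. Of 7 tested genes of partners and inhibitors of Twist1, Twist2 and Scx, 4 passed the litter test, beside 9.91% of all tested genes, and 4 were highest in litter 2, beside 24.5% of all. In both counts the 4 were Id1, Id2, Id3 and Id4. By their brightest probe sets, the partner genes Tcf3, Tcf4 and Tcf12 did not pass (limma F-test, adjusted p = 0.826, 0.489 and 0.128), and Tcf12 was highest in litter 3. Of the 5 tested probe sets of Tcf4, however, 1 passed. Tcf4 and Tcf12 were named after their values were seen. The inhibitor gene Id1 gave 5213, 8208, 5439 and 4503 in transgenic samples of litters 1 to 4, against 4510, 9481, 4641 and 4262 in control samples (limma F-test, adjusted p = 0.00113). Id3 and Id4 were likewise highest in litter 2, with litter means up to 1.67-fold and 1.68-fold apart (adjusted p = 0.00372 and 0.00557). Between genotypes 0 of the 7 passed, and Id2 and Tcf3 stood at 0.18 and 0.14 log2.

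Of 14 other mesenchymal transcription factors tested, 3 passed the litter test, beside 9.91% of all tested genes, namely Snai1, Snai2 and Foxc1, each highest in litter 2. Snai2 and Foxc1 each had 2 tested probe sets, of which 1 passed. Snai1, a zinc finger repressor, gave 972.4, 1048, 784.9 and 388.3 in transgenic samples of litters 1 to 4, against 914.0, 1468, 890.9 and 391.5 in control samples (limma F-test, adjusted p = 0.000574). In 12 of the 14 the lowest litter was litter 4, beside 29% of all tested genes. Between genotypes 0 passed, with Msx1 at 0.38 and Tbx18 at 0.31 log2.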
